A study of Mus musculus with 6 samples.

Results

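The genes described here encode the machinery that copies DNA in S phase: 44 genes taken by symbol from a list of known replication factors, of 22564 protein-coding genes in the deposited expression table. The list was drawn up by role and not from a measured value, although earlier results of these data were known when it was made. All 44 symbols matched exactly 1 row. All 44 reached a mean of 1 FPKM (fragments scaled to transcript length and library size) over the 6 libraries, and 42 of them were above 0 in every library. The other 2, Cdt1 and Gins2, were listed at 0 in all DMSO libraries and are given apart, with no fold change.

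The libraries were made from cells labelled EOMA, a mouse hemangioendothelioma-derived line, grown under normoxia. One group received the solvent DMSO for 24 h (3 libraries) and the other 2 µM DHTS for 24 h (3 libraries). DHTS is 15,16-dihydrotanshinone I, a tanshinone of the sage root Salvia miltiorrhiza, which the series title places in work on infantile hemangioma. No untreated cells and no other dose or time were analysed here, and the labels leave unsaid whether replicate libraries stem from different cultures. If they do not, the spread behind each p-value is technical only.

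Libraries held 9343175 to 12255239 estimated fragments on the genes of the table. Across the 11416 genes tested, log2 values correlated at r = 0.986 to 0.989 within a group and at 0.929 to 0.932 between groups, a description across genes. The label of vascular endothelium was not matched by its defining markers: of 12 endothelial markers 2 (Esam and Eng) reached a mean of 1 FPKM, Tie1 and Emcn were listed at 0 in all libraries, and Cdh5, Kdr and Tek in every DMSO library. The 12 markers summed to 3.95 to 4.98 FPKM with DMSO and to 10.7 to 16.7 FPKM with DHTS. Of 8 epithelial markers 5 reached a mean of 1 FPKM, and the 8 summed to 214 to 219 FPKM with DMSO and 256 to 264 FPKM with DHTS. Cdh1 (0.032 with DMSO and 0.048 FPKM with DHTS), Krt19 (0.082 and 0.465 FPKM) and Cldn7 (0 and 0.056 FPKM) did not reach it. Within that list Krt18 was at 136 ± 2.79 and then 197 ± 4.89 FPKM (mean ± SD, n = 3), while Epcam (24.2 ± 1.254 and 17.3 ± 0.650 FPKM) and Elf3 (34.9 ± 0.855 and 19.6 ± 1.49 FPKM) were lower with DHTS. Of 6 blood markers 2 reached a mean of 1 FPKM, with sums of 41.8 to 46.9 FPKM with DMSO and 27.0 to 31.0 FPKM with DHTS, and of 8 fibroblast and mural markers 2 did, with sums of 31.9 to 34.3 and 20.7 to 22.0 FPKM. The part of these differences in the results on replication genes was not tested.

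Replication starts at origins marked by the origin recognition complex (ORC), on which CDC6 and CDT1 load the ring-shaped MCM helicase in G1. In S phase CDC45 and the GINS complex join MCM to form the active helicase, polymerase alpha with its primase lays down primers, polymerase epsilon extends the leading strand and polymerase delta the lagging strand. RFC opens the sliding clamp PCNA and closes it around DNA, RPA coats single strands, FEN1 and LIG1 finish Okazaki fragments, and ribonucleotide reductase, thymidylate synthase and thymidine kinase supply deoxynucleotides. Many of these genes are classical targets of the E2F transcription factors, whose activity rises at the G1 to S boundary and is held back by the retinoblastoma family.

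Promoters of many members hold letters of the E2F consensus. RefSeq windows of 250 bases before to 50 after the start (build GRCm38.p6, the coordinates of mm10) were found for 37 of the 44 members, 45 windows in all. The forms TTTCCCGC, TTTGGCGC, TTTCGCGC and TTTGCCGC of the E2F consensus were searched on both strands, where matches may overlap, as they do in Mcm6. At least 1 form was present in 15 of the 37 members and in 33.3% of their 45 windows, against 2.27% of all 32851 windows and 4.05% of the 10974 windows of genes that were tested here. A match is a description of letters and not a site shown to be bound. The windows below show the motif in capitals in members that rose (Mcm7, Orc1, Rfc3), fell (Cdc6) and did not pass (Mcm6), and lie at chr5:138171834-138172133 (minus strand) for Mcm7, chr4:108579204-108579503 (plus strand) for Orc1, chr5:151651159-151651458 (minus strand) for Rfc3, chr11:98907901-98908200 (plus strand) for Cdc6 and chr1:128359656-128359955 (minus strand) for Mcm6. Mcm7 has a second annotated start without a match. The windows of Cdc6 and Mcm7 lie wholly inside these genes as GENCODE places them. There Cdc6 starts at 98907801 and Mcm7, on the minus strand, at 138172422. Bases before those 2 starts were not searched.
Mcm7: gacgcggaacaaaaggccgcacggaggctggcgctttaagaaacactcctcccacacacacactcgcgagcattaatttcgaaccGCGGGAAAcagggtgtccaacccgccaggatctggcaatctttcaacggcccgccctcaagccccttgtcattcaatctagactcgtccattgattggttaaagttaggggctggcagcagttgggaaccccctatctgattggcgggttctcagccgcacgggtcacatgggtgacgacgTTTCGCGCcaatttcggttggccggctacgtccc
Orc1: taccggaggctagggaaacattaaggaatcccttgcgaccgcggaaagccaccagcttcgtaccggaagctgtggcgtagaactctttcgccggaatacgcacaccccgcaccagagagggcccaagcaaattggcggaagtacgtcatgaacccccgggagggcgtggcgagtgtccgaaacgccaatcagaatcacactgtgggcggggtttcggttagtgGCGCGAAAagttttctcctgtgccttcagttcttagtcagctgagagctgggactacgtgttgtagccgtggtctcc
Rfc3: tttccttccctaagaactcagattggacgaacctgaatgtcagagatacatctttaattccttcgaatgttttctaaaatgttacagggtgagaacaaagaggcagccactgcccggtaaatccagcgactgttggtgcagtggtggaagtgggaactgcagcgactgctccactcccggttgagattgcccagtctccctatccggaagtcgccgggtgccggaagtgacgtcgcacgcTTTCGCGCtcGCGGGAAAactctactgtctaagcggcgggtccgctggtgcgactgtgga
Cdc6: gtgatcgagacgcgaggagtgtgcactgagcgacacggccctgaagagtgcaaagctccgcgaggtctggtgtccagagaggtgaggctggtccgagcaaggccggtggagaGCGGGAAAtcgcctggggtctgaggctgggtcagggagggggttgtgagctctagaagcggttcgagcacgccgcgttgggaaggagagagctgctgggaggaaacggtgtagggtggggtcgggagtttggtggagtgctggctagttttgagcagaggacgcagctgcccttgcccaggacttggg
Mcm6: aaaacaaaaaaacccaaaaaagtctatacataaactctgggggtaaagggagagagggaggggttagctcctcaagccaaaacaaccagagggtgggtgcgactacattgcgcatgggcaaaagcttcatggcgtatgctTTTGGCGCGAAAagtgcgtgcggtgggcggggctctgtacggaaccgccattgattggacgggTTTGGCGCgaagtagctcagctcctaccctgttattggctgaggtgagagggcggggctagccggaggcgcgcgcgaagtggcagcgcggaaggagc
The CCAAT box (CCAAT, both strands) was present in 55.6% of member windows and 37.4% of all windows, the GC box (GGGCGG, both strands) in 71.1% and 35.7%, and the cell cycle homology region (TTTGAA, both strands) in 11.1% and 17.9%. In windows of tested genes the GC box stood at 64.5% and TTTGAA at 11.4%.

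The comparison of DHTS with DMSO asked whether replication genes changed with the compound. As a set they did not shift in a single direction. Of the 42 members compared, 11 were higher and 7 lower after DHTS (limma on log2(FPKM + 1), Benjamini-Hochberg adjusted p under 0.05 over all genes tested), and 24 did not pass. Calls came to 42.9% of the members, where 50.1% of all genes tested were called. Higher calls made up 26.2% of members against a background of 28.2%, and lower calls 16.7% against 21.9%, so on this fit neither share stood above that of all genes tested. Under median-ratio scaling 10 members were higher (23.8%, against 25.3% of genes) and 11 lower (26.2%, against 25.7%). Quantile normalization gave 11 higher (26.2%, against 22.3%) and 9 lower (21.4%, against 29.9%). On scaled fragments 15 were higher (35.7%, against 33.9%) and 13 lower (31.0%, against 28.6%). Of the calls over all genes, 56.3% were higher as designed and 42.8% under quantile normalization. The median log2 fold change of the members was 0.02, and that of all genes 0.03. The median size of the change without its sign was 0.17 on the log2 scale for members and 0.25 for all genes. Only Orc5 was both called and changed at least 1.5-fold on this scale, 1 of 42, where 18.2% of genes tested did so. Members also stood at a higher level, with a DMSO median of 49.0 FPKM against 16.7 FPKM for all genes tested. Their median SE was 0.056, against 0.082. The part of level and SE in the smaller changes was not tested. Groups of libraries did not overlap in 24 members (57.1%), against 59.8% of genes tested. In RNA from bulk cultures a different number of cells in S phase and a different amount of RNA per cell cannot be told apart, for any gene below.

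**Figure D1:**
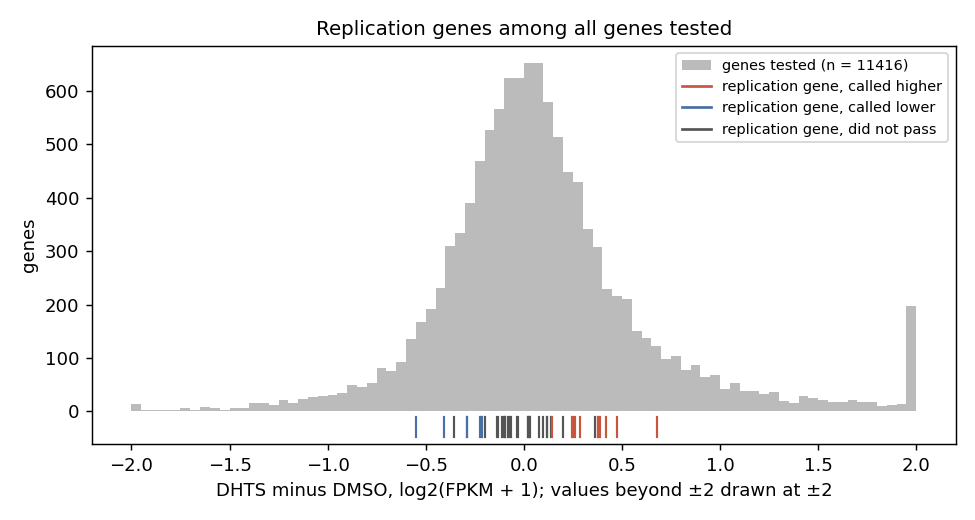
Histogram of the log2 fold change (DHTS minus DMSO, log2(FPKM + 1), x axis) over the 11416 genes tested, with the number of genes on the y axis and 1 tick below it for each of the 42 replication genes, coloured by call. The ticks run from -0.55 (Pold2) to 0.68 (Orc5) and lie on both sides of 0.

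Summed over the 42 members, the machinery took 0.428%, 0.436% and 0.431% of all FPKM in the DMSO libraries and 0.445%, 0.438% and 0.441% in the DHTS libraries. Each DHTS library thus stood above each DMSO library, by a margin that is small beside the total (0.432% ± 0.00362 against 0.441% ± 0.00368, mean ± SD, n = 3 each here and below). By level, Pcna led with 229.6 ± 10.5 FPKM with DMSO, followed by Rpa1 (175 ± 5.11) and Mcm7 (158 ± 8.76), while Orc1 (9.12 ± 0.639), Orc5 (9.99 ± 1.02) and Gins3 (11.3 ± 0.917) were the lowest of the 42. FPKM is per length, so these levels can be set beside each other. The lowest 3 in DMSO cells were all among the 11 that rose. The next lowest, Pola1 (14.0 FPKM), Orc3 (15.5 FPKM) and Pole2 (16.0 FPKM), did not pass. A link between level and change was not tested.

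**Figure D2:**
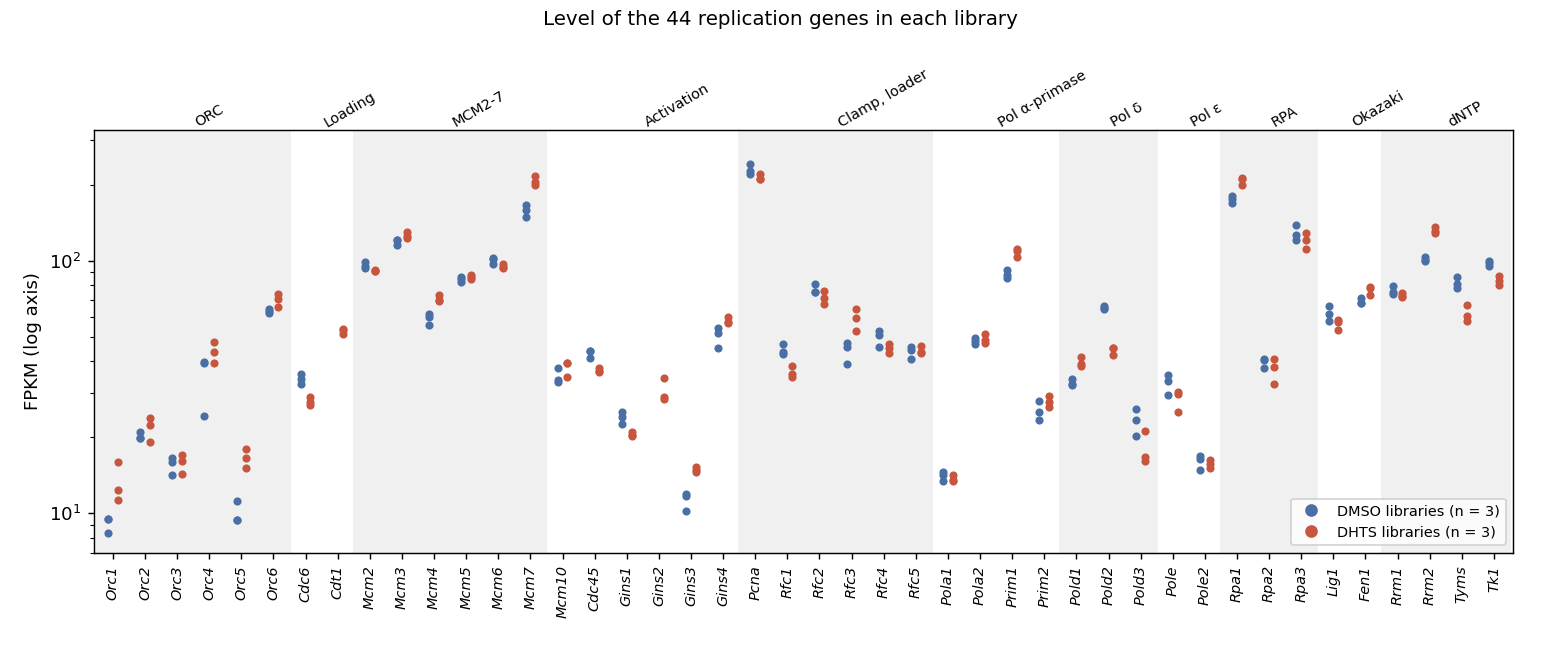
FPKM of the 44 replication genes (log y axis) in each of 3 DMSO and 3 DHTS libraries, grouped by role along the x axis. Each point is 1 library, and Cdt1 and Gins2 have no DMSO point because they were listed at 0 there.

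In the origin recognition complex 2 of 6 genes passed, both higher. The other 4 did not pass. Orc5, an ATPase-fold subunit of the complex on chromosome 5 at 22486485 to 22550429, measured 9.43, 9.38 and 11.2 FPKM in DMSO cells and 18.0, 15.1 and 16.5 FPKM in DHTS cells. It was higher in every treated library, with the largest change of any member (log2 fold change 0.68, SE 0.09, adjusted p = 0.00095). Orc1, the subunit whose protein is degraded after G1 in human cells, lies on chromosome 4 at 108579423 to 108614833. Its level was 9.49, 9.50 and 8.39 FPKM with DMSO and 11.3, 12.4 and 15.9 FPKM with DHTS, without overlap (0.48, SE 0.13, adjusted p = 0.017). Quantile normalization (adjusted p = 0.054) and leaving out DMSO replicate 3 (0.057) ended that call (range over alternatives 5.1e-06 to 0.057). Orc6, the subunit set apart from the core ring, missed the threshold at 0.14 (95% interval 0.02 to 0.26, adjusted p = 0.051) with no overlap between groups. Orc4 was at 39.8, 24.2 and 39.3 FPKM with DMSO and 43.8, 47.7 and 39.6 FPKM with DHTS, with the lowest value in DMSO replicate 2 and an interval of -0.08 to 0.81. Core subunits Orc2 (0.10, interval -0.10 to 0.29) and Orc3 (0.03, interval -0.18 to 0.24) did not pass. Orc4 and Orc6 hold fractional fragment values, which whole reads of 1 gene do not give, and 29.8% of the exon bases of Orc2 overlap Nif3l1 on the opposite strand. Strand use in the authors' counting is not given in the sources used here.

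Of the loading factors, Cdc6 fell. The ATPase gene Cdc6 on chromosome 11 at 98907801 to 98923940 went from 34.2, 32.5 and 35.6 FPKM with DMSO to 28.9, 27.5 and 26.8 FPKM with DHTS. All 3 treated libraries were below all controls (-0.29, SE 0.05, adjusted p = 0.0043). Its partner in MCM loading, Cdt1 on chromosome 8 at 122568015 to 122573554, had a listed value of 0 throughout the DMSO group, and measured 53.2, 51.4 and 53.8 FPKM in DHTS cells. Cdt1 and Gins2 belong to a merged locus of chromosome 8, positions 119910360 to 124345724, in which all 75 genes were listed at 0 in every DMSO library and 65 were above 0 in every DHTS library. Their DMSO values are therefore no measurement of these genes, and neither is counted among the members that rose.

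The helicase subunits split. Mcm2 to Mcm7 encode the 6 subunits of the ring, which assemble in equal numbers. Of these, Mcm7 and Mcm4 rose and the other 4 changed by less than 0.1 on the log2 scale. Mcm7, on chromosome 5 at 138164583 to 138172422, was at 149, 167 and 159 FPKM in DMSO cells and at 218, 205 and 199.8 FPKM in DHTS cells. These ranges lay well apart (0.39, SE 0.05, adjusted p = 0.00075). Mcm4, a subunit with a regulatory tail that the kinase CDC7 phosphorylates, went from 59.8, 55.8 and 61.5 to 73.3, 70.0 and 69.6 FPKM (0.26, SE 0.05, adjusted p = 0.0038). It was the lowest of the 6 in DMSO cells, and Mcm7 the highest in both groups.

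The other 4 helicase genes did not pass. Mcm2 stood at 99.2, 95.2 and 94.0 FPKM in DMSO cells and at 91.4, 91.3 and 91.7 FPKM in DHTS cells (-0.07, 95% interval -0.15 to 0.01). Mcm6 was at 102.9, 97.5 and 101 FPKM and then at 94.7, 93.6 and 97.2 FPKM (-0.08, interval -0.17 to 0.01). In both the treated libraries were all lower. Mcm3, at 121, 121 and 116 FPKM with DMSO and 130.02, 125 and 124 FPKM with DHTS, was higher in every treated library without passing (0.08, interval -0.01 to 0.17). Mcm5 overlapped between groups at 86.1, 84.4 and 82.6 against 88.1, 86.2 and 84.4 FPKM (0.03, interval -0.05 to 0.12). On the scale of fragments Mcm2, Mcm3 and Mcm6 were called in those same directions (adjusted p = 0.047, 0.043 and 0.033), and Mcm2 and Mcm6 also under median-ratio scaling (0.031 and 0.022).

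Among the genes that turn the loaded ring into an active helicase, 1 rose and 2 fell. Gins3, a subunit of the GINS tetramer, went from 11.7, 10.2 and 11.9 FPKM with DMSO to 14.9, 15.3 and 14.6 FPKM with DHTS (0.38, SE 0.07, adjusted p = 0.0046). Its partner Gins1 moved the other way, from 24.0, 22.7 and 25.2 to 20.3, 20.4 and 20.9 FPKM (-0.21, SE 0.06, adjusted p = 0.018). Neither gene's groups overlapped, so subunits of the same tetramer changed in opposite directions. The Gins1 call was lost on fragments (adjusted p = 0.064) and without DMSO replicate 1, DMSO replicate 3 or DHTS replicate 1, with adjusted p from 0.0031 to 0.064 over all alternatives. Cdc45, which bridges GINS and MCM, fell from 43.9, 43.9 and 41.1 to 36.2, 37.5 and 36.8 FPKM (-0.22, SE 0.05, adjusted p = 0.0069). Gins4 (0.20, interval 0.03 to 0.37, adjusted p = 0.051) was higher in each treated library without passing. The initiation factor gene Mcm10 (0.12, interval -0.06 to 0.29) overlapped between groups. Gins2 was at 29.0, 28.5 and 34.3 FPKM with DHTS, and 67.3% of its exon bases overlap Gse1 on the opposite strand.

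Genes of the clamp and its loader went both ways. Pcna, the sliding clamp and the most abundant member, was at 241, 226 and 221 FPKM in DMSO cells and at 220.3, 212 and 210.5 FPKM in DHTS cells. The highest treated library lay just under the lowest control, and the change of -0.10 (95% interval -0.20 to -0.00) did not pass (adjusted p = 0.085), though it did on fragments (0.012) and under median-ratio scaling (0.027). Pcna has 2 annotated pseudogenes that carry its name, which could take part of its fragments. Rfc3, a small subunit of the loader, rose from 45.8, 39.0 and 47.2 to 59.6, 52.9 and 64.7 FPKM (0.42, SE 0.10, adjusted p = 0.0098). Rfc1, the large subunit that makes RFC the replicative loader, fell from 42.8, 43.6 and 47.0 to 38.3, 34.6 and 35.7 FPKM (-0.29, SE 0.06, adjusted p = 0.0056). Its change on fragments was smaller (-0.19, adjusted p = 0.00042). The other small subunits Rfc2 (-0.11, interval -0.24 to 0.02), Rfc4 (-0.14, interval -0.29 to 0.02) and Rfc5 (0.02, interval -0.11 to 0.15) did not pass. Rfc4 holds fractional fragments.

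**Figure D3:**
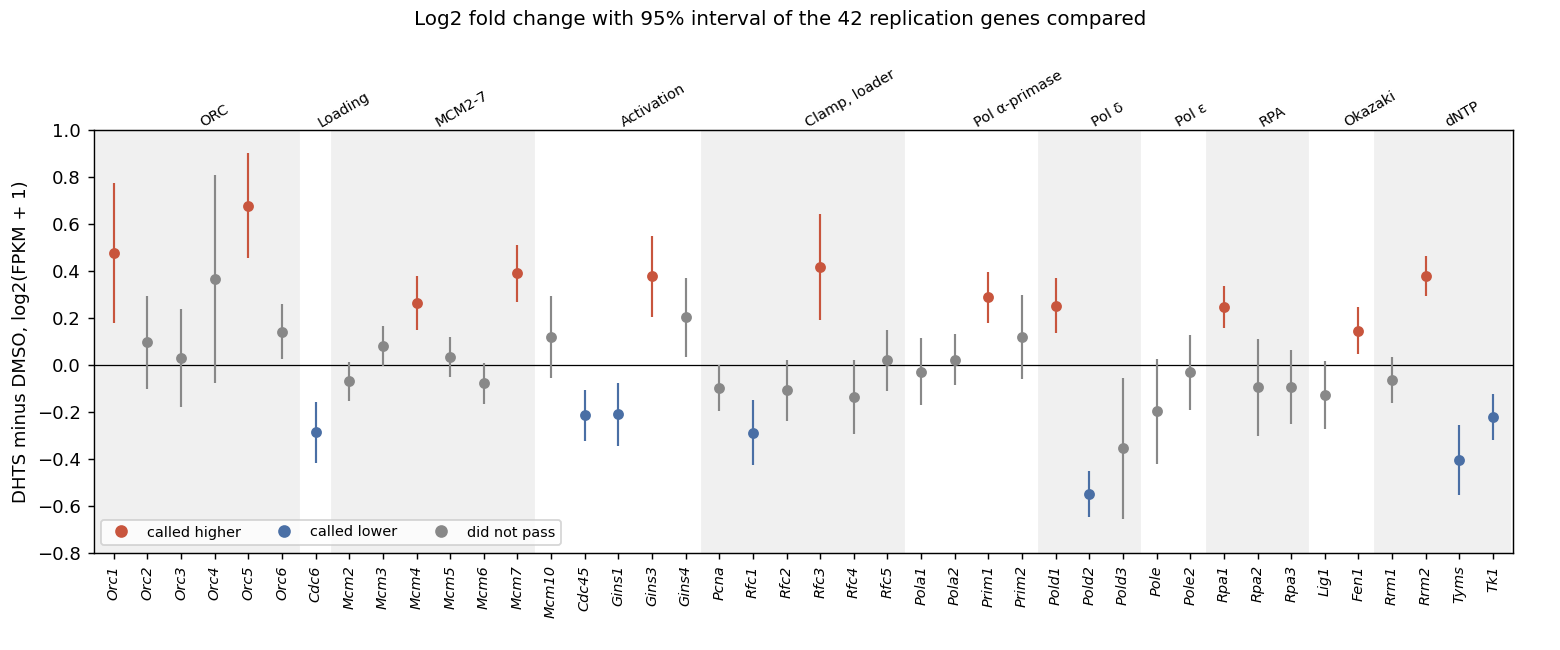
Log2 fold change of each of the 42 replication genes compared (DHTS minus DMSO, log2(FPKM + 1), y axis), by role along the x axis. Points are estimates from 3 libraries a group and bars their 95% intervals, unadjusted for the number of genes, coloured by whether the gene was called higher, called lower or did not pass, and every role with at least 5 members holds both called and uncalled genes.

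Of the 9 polymerase genes 3 passed, Pold1 and Prim1 higher and Pold2 lower. Pold2, the B subunit that links the catalytic core of polymerase delta to its accessory chain, showed the largest fall of any member. It lies on chromosome 11 at 5872180 to 5878292 and went from 65.1, 64.8 and 66.1 FPKM with DMSO to 45.2, 42.4 and 45.2 FPKM with DHTS. Replicates were tight in both groups (65.3 ± 0.723 against 44.3 ± 1.61 FPKM; -0.55, SE 0.04, adjusted p = 5.1e-05). The deposited table places Pold2 in a merged locus of 12 genes, and of its 7 other tested genes 2 were higher and 2 lower. In that locus 1 other gene was listed at 0 in a group. Mcm2 and Pola2 also lie in merged loci, of 10 and 39 genes, each with 2 others at 0 in a group. Loci of 2 to 4 genes hold the called members Orc5, Tyms, Tk1, Mcm7, Rrm2, Cdc45 and Fen1. They also hold Orc2, Orc4, Rfc4, Rfc5 and Lig1, which did not pass. No other gene of these smaller sets was found at 0 in a group. The part of this in their values was not tested. Pold1, the catalytic subunit of the same polymerase, rose on FPKM from 32.4, 34.1 and 32.7 to 38.9, 38.3 and 41.5 (0.25, SE 0.05, adjusted p = 0.0051), but on fragments its change was 0.08 (adjusted p = 0.12). FPKM per 1000 scaled fragments of Pold1 was 32.5, 32.6 and 33.1 with DMSO and 37.2, 35.3 and 38.4 with DHTS, higher in each treated library. Pold3, the PCNA-binding accessory subunit, was at 26.0, 23.5 and 20.3 FPKM and then 16.1, 16.7 and 21.2 FPKM, overlapping in 1 library of each group (-0.36, interval -0.66 to -0.05, adjusted p = 0.053). On fragments it did pass (-0.36, adjusted p = 0.0001).

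Prim1, the catalytic primase subunit, rose from 85.8, 92.2 and 87.6 to 112, 109.7 and 103 FPKM (0.29, SE 0.05, adjusted p = 0.0018). The remaining subunits of that enzyme did not pass, Pola1 at -0.03 (interval -0.17 to 0.11), Pola2 at 0.02 (-0.09 to 0.13) and Prim2, the regulatory primase subunit, at 0.12 (-0.06 to 0.29). The leading-strand polymerase gene Pole was at -0.20 (interval -0.42 to 0.02, adjusted p = 0.12) and its B subunit Pole2 at -0.03 (-0.19 to 0.13). On fragments Pole was called lower (adjusted p = 0.00028).

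Rpa1, the large DNA-binding subunit of the single-strand binding complex, rose from 180.1, 175 and 169.9 to 211, 199.7 and 212 FPKM (0.24, SE 0.04, adjusted p = 0.0016), and by 0.15 on fragments (adjusted p = 0.00045). Its smaller partners Rpa2 (-0.10, interval -0.30 to 0.11) and Rpa3 (-0.09, interval -0.25 to 0.06) did not pass, and their libraries overlapped between groups. Fen1, the flap nuclease, rose from 68.4, 68.1 and 71.2 to 78.5, 73.6 and 78.0 FPKM (0.15, SE 0.04, adjusted p = 0.024). Its value is uncertain, since 84.2% of its exon bases overlap genes on the opposite strand, Tmem258 and Gm10143, and the call was lost under 6 of 15 alternatives, 4 of them without a single library (DMSO replicate 1, DMSO replicate 2, DHTS replicate 1 or DHTS replicate 3; range of adjusted p 0.0036 to 0.077). Lig1, which seals the fragments, was at -0.13 (interval -0.27 to 0.02).

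Genes of nucleotide supply went both ways, with 1 higher and 2 lower of 4. Rrm2, the small subunit that limits ribonucleotide reductase in S phase, lies on chromosome 12 at 24708241 to 24714146 and rose from 103, 101 and 99.7 to 131, 129 and 137 FPKM (0.38, SE 0.04, adjusted p = 0.00015). Rrm1, the large subunit, was at 74.3, 75.4 and 79.8 FPKM and then 72.8, 71.6 and 74.7 FPKM, overlapping between groups (-0.06, interval -0.16 to 0.03). Tyms, thymidylate synthase, fell from 81.3, 86.7 and 78.4 to 58.0, 66.7 and 60.8 FPKM (-0.40, SE 0.06, adjusted p = 0.0017). Tk1, the S-phase thymidine kinase of the salvage route, fell from 98.0, 100.1 and 95.9 to 83.6, 80.6 and 87.5 FPKM (-0.22, SE 0.04, adjusted p = 0.0040). Rrm2 thus rose while Tyms and Tk1, whose enzymes make thymidine monophosphate, fell, each without overlap between groups. The mitochondrial thymidine kinase gene Tk2, outside the members, is given below. Tyms holds fractional fragments and has 1 annotated pseudogene of its name.

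Ratios within a library do not depend on how libraries are scaled to each other. The 8 pairs computed were chosen after their changes were seen, so they are descriptions. Pold1 over Pold2 was 0.498, 0.526 and 0.494 in the DMSO libraries and 0.860, 0.903 and 0.917 in the DHTS libraries, a 1.77-fold shift on FPKM and 1.60-fold on fragments. Rfc3 over Rfc1 went from 1.07, 0.895 and 1.00 to 1.56, 1.53 and 1.81, a 1.65-fold shift on FPKM and 1.52-fold on fragments. Orc5 over Orc3 shifted 1.63-fold, Gins3 over Gins1 1.54-fold, Mcm7 over Mcm2 1.38-fold, Rrm2 over Rrm1 1.36-fold and Mcm4 over Mcm6 1.27-fold. Between enzymes, Tyms over Rrm2 fell to 0.577 of its DMSO value. In each of the 8 pairs, on FPKM and on fragments, the libraries of the groups did not overlap. An exact two-sided permutation test of 3 against 3 libraries cannot go below 0.1 and gave 0.1 for each of these pairs. Because the pairs were chosen after their changes were seen, nothing is concluded from the separation or from this p-value.

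**Figure D4:**
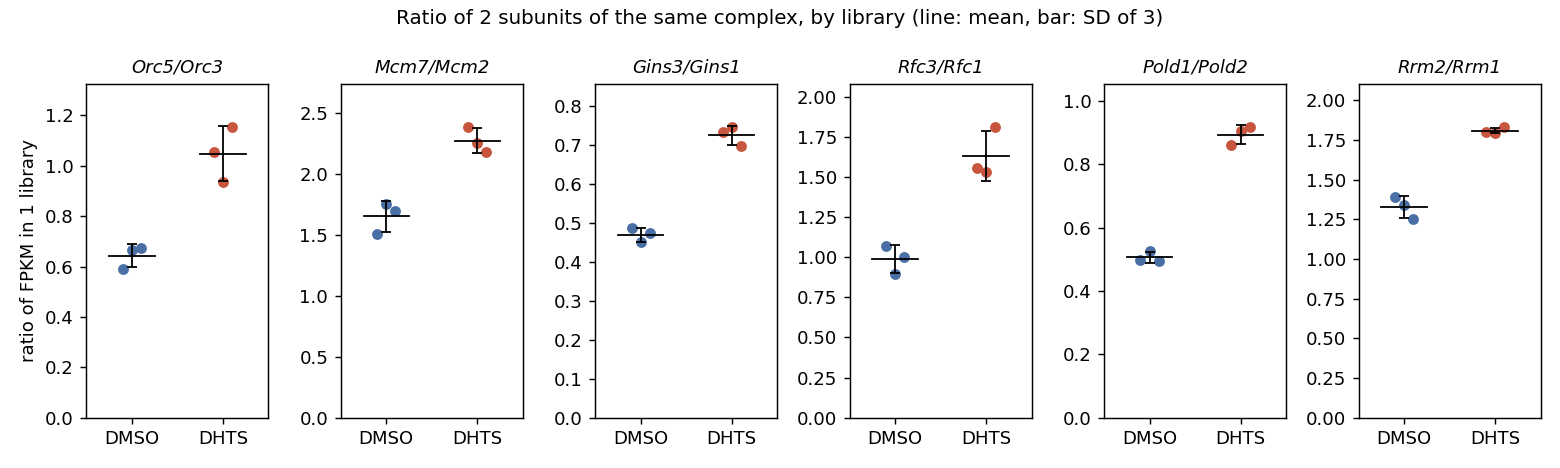
Ratio of the FPKM of 2 subunits of the same complex within 1 library (y axis, from 0) for 6 pairs, with 3 DMSO and 3 DHTS libraries as points, the mean as a line and the SD as a bar. The DHTS points lie above the DMSO points in each panel, from 0.506 to 0.893 on average for Pold1 over Pold2. The pairs were chosen after the changes of their genes were seen.

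The deposited table holds each gene on a further scale, fragments divided by 1 factor per library, which leaves out the length term of FPKM. Of the 42 members 28 were called on it (15 higher and 13 lower), where 62.5% of the 11930 genes tested on that scale were called, 33.9% higher and 28.6% lower. Shared by both scales were 16 calls, all with the same sign. Pold1 and Gins1 were called on FPKM only, and 12 members on fragments only. Log2 fold changes lay within 0.05 of each other in 34 of 42 members, and the largest gap was 0.21 (Orc4, 0.36 on FPKM and 0.16 on fragments). The length term moved by more than 1.1-fold between libraries in 13 members (31.0%), and in 39.6% of the 11286 genes tested that were above 0 throughout. It moved most in Orc4 (1.69-fold) and Pold3 (1.43-fold).

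**Figure D5:**
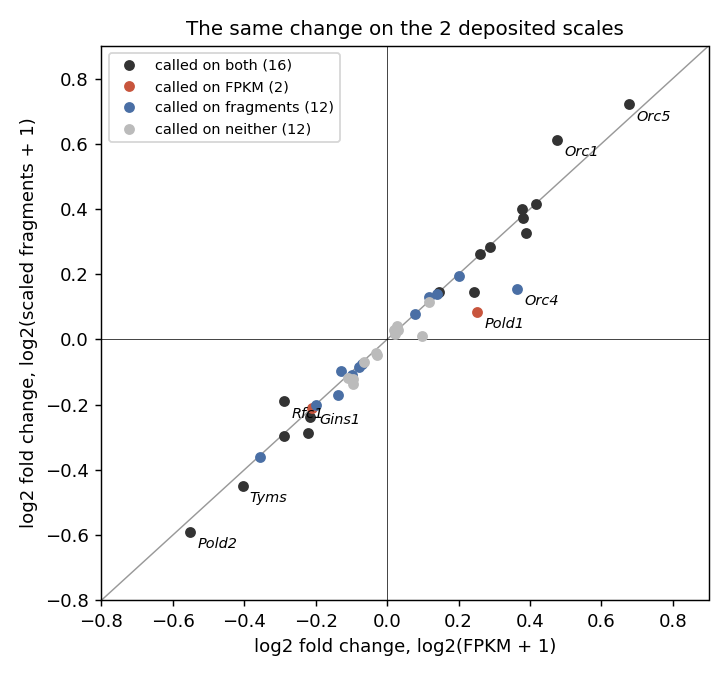
Log2 fold change of the 42 replication genes on log2(FPKM + 1) (x axis) against log2(scaled fragments + 1) (y axis), coloured by the scale on which a gene was called. For 34 of the 42 genes the values differ by less than 0.05 and the points lie near the line of equal change. Of the rest, Orc4, Pold1, Rpa1, Orc2, Mcm7 and Tk1 lie below it, and Orc1 and Rfc1 above it.

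Members with and without the promoter motif were called in both directions. Of the 14 members with an E2F match and a fold change 5 were higher (Orc1, Mcm7, Gins3, Rfc3 and Pold1), 1 was lower (Cdc6) and 8 did not pass, with a median of 0.03. Of 22 members whose windows held no match, 5 were higher, 5 lower and 12 did not pass, with a median of -0.02. Rrm2, Tyms and Pold2 are among the latter, which says only that these letters are not in these windows. Over all genes tested 28.2% were higher and 21.9% lower. Pold1, among the higher genes with a match, was not called on fragments. Both groups of genes are small, and the difference between them was not tested.

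Other genes of replication were also called in both directions. Over 7 lists with 88 genes, all of them tested, 21 were higher (23.9%, against 28.2% of all genes tested) and 18 lower (20.5%, against 21.9%), at a median of -0.01. In all 44.3% were called, below the 50.1% of genes tested, and the lists differed in their counts, a difference that was not tested. Among factors that control origin firing 2 of 14 were higher and 3 lower, with Mtbp, the partner of the firing factor TICRR, falling from 28.8 ± 2.50 to 18.7 ± 0.218 FPKM (-0.59, adjusted p = 0.00042), Rif1 falling by 0.34 and the ORC-associated gene Lrwd1 rising by 0.33. Fork protection and checkpoint genes had 4 of 15 higher and 2 lower. Rad1 (0.58) and Rad9a (0.52), subunits of the checkpoint clamp that resembles PCNA, rose, and the kinase gene Chek1 fell by 0.48 (adjusted p = 0.038). Of 5 genes of alternative clamp loaders and clamp partners, Chtf18 rose by 0.18, and the PCNA-binding factor gene 2810417H13Rik, named Pclaf in the reference annotation, fell from 174 ± 8.91 to 129.8 ± 2.57 FPKM (-0.42, adjusted p = 0.00023).

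Pold4 and Ctc1 had the largest changes in these lists. Pold4, the smallest subunit of polymerase delta, measured 22.6, 16.8 and 21.5 FPKM in DMSO cells and 56.6, 60.8 and 56.3 FPKM in DHTS cells (1.48, SE 0.11, adjusted p = 4.1e-05). Polymerase delta therefore had 1 subunit gene that fell (Pold2), 2 that rose on FPKM (Pold1 and Pold4) and 1 that did not pass (Pold3). Ctc1, the large subunit of the CST complex that binds telomeric single strands, rose by 1.22 while its partner Ten1 fell by 0.50, within a list in which 5 of 13 polymerase accessory and nuclease genes were higher and 1 lower. Topoisomerases and histone deposition factors had 1 of 14 higher and 5 lower, with the maintenance methylation factor Uhrf1 (-0.34) and the histone chaperones Asf1b (-0.32) and Asf1a (-0.22) lower.

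Of 16 further nucleotide genes 5 were higher and 5 lower. The mitochondrial thymidine kinase gene Tk2 rose by 1.12, from 3.38 ± 0.426 to 8.61 ± 1.55 FPKM, while the deoxynucleotide triphosphohydrolase gene Samhd1 fell by 0.67 and the kinase gene Nme1 by 0.46. Nme1 has a close paralog, Nme2, and its split of fragments is uncertain. Thymidine kinases thus differed in direction, the S-phase Tk1 lower and the mitochondrial Tk2 higher. Genes for CDT1 destruction and replisome disassembly had 3 of 11 higher and 1 lower, with the CDC48 cofactor Ufd1l (0.39) and the ubiquitin ligase scaffold Cul4a (0.21) higher and the ligase subunit Skp2 (-0.31) lower. Of the 35 genes that the deposited table itself annotates to DNA replication, 26 are members described above. In that annotation 9 were higher (25.7%, against 28.2% of genes tested) and 2 lower (5.71%, against 21.9%). Of its 9 remaining genes only Pold4 and Rnaseh2c (0.31, adjusted p = 0.0035) passed. These 9 were looked at after the data were seen.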

How the data were processed

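RNA was measured in 6 libraries, 3 of DMSO and 3 of DHTS cells. Tools named per the submitters' processing notes are Cuffdiff 2.2.1, Cufflinks, HISAT2 2.0.4 and fastp 0.20.0, and the build is mm10; what each did, and the annotation, is not stated there. The authors deposited FPKM per gene and library, per the file headers, and a block headed as counts. That block is a signal in the deposited table, fragments that the authors' estimate gave each gene, scaled by a single factor in a library. Of its values above 0, 92.7% to 93.0% per library were whole within 0.1 of a fragment. No count model was planned, because the values were expected to be FPKM.

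Genes with a mean of at least 1 FPKM (11416) entered limma 3.58.1 (R 4.3.3), fitted to log2(FPKM + 1) with trend and robust options and treatment as the only term, two-sided, with Benjamini-Hochberg adjustment over all of them and a threshold of 0.05. Fold changes of low genes are understated on this scale. Intervals are limma's 95% intervals. The fit was tested on simulated data with few changed genes, the same dispersion for all genes and a fixed length term. That setting differs from these data, so nothing about the calls here is concluded from it. Coordinates are from GENCODE M21 (GRCm38), counted from 1. Values per library are given for members past the threshold, for Cdt1, Gins2 and 13 genes named in the design, and for Orc4, Pold3 and Pold4, added after their values were seen. From each of 7 pathway lists up to 3 genes with the largest called changes are named. The members and lists were chosen with earlier results of these data known. The 15 alternatives changed the pseudocount, filter, scaling, fit or unit, or left out 1 library or the chromosome 8 locus.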

Additional observations from a re-analysis of the deposited data

How the results depend on the processing

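Across 15 alternatives 14 of the 18 called members kept their call and sign, while Orc1, Gins1, Pold1 and Fen1 lost the call in at least 1. No called member changed sign, and 12 of 24 uncalled members passed in some alternative. All 12 passed on scaled fragments, a scale on which 62.5% of all genes tested were called. Members called lower numbered 11 with median-ratio scaling and 13 on scaled fragments, against 7. The members' median of 0.02 became -0.0220 with median-ratio scaling and -0.0444 with quantile normalization, and ran from -0.0157 (without DMSO replicate 2) to 0.0278 when single libraries were left out, so its sign is not settled. Without 1 library, 10 to 11 members were higher, 6 to 8 lower and 5055 to 5206 genes called, against 5720. The cause was not tested. Uncalled members near 0 changed sign. With median-ratio scaling these were Orc3 (-0.0126), Mcm5 (-0.0117), Rfc5 (-0.0232) and Pola2 (-0.0208), and with quantile normalization Orc2 (-4.5e-05), Orc3 (-0.0884), Rfc5 (-0.0337) and Pola2 (-0.0165). With single libraries left out, Orc3 ran from -0.0344 to 0.0951, Rfc5 from -0.0236 to 0.0492, Pola2 from -0.00851 to 0.0435 and Pole2 from -0.0855 to 0.00142. With a replicate block 11 members were higher, 7 lower and 5437 genes called. Deviations of same-numbered libraries correlated at -0.05, 0.06 and 0.01, within the range of -0.08 to 0.08 for differently numbered libraries. Such values cannot tell whether the numbers pair libraries weakly or not at all. Depth limits the low members most: in DMSO libraries Orc5 had 175 to 267 and Gins1 191 to 248 fragments.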
